A study of Mus musculus with 8 samples.

Results

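Gene expression in liver was set against gene expression in hypothalamus across 4 matched pairs of RNA pools, one pair for each combination of strain and diet. All 8 samples of the series enter the comparison, 4 liver and 4 hypothalamus, and they were chosen by their labels alone. Each sample was RNA pooled from 6 male mice and read on 1 single-channel chemiluminescent array, and no pool was repeated. The strains were C57BL/6J (B6) and B6.CAST-17, a homozygous congenic line that carries chromosome 17 sequence of the CAST strain on the B6 background. The diets were chow (LabDiet) and a 2-choice condition of 24 h, in which mice selected between a 78% carbohydrate and a 78% fat food, each with 22% protein. Per the labels, the mice came from 20 to 25 animals of each strain that had been screened for nutrient intake over 10 days; those with the most divergent intake were kept and spent 6 weeks back on chow. Collection at 4 h before lights out is stated with the 2-choice condition, and the collection time of the chow mice is not given in the sources used here. The 4 pairs were therefore B6 chow, congenic chow, B6 2-choice and congenic 2-choice, and values per array are given in that order throughout.

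The liver makes most of the proteins of blood plasma, turns amino nitrogen into urea, makes bile acids from cholesterol and releases glucose. Most of its RNA comes from hepatocytes, with smaller shares from Kupffer cells, sinusoidal endothelium, stellate cells and bile duct cells. The hypothalamus is a part of the brain whose neurons release peptides that act on feeding, water balance, growth and reproduction. Its tissue also holds astrocytes, oligodendrocytes, microglia, vessels and the ependymal lining of the ventricle. In pooled bulk tissue, fewer cells of a type and less RNA per cell cannot be told apart, and this holds for every cell type marker described here.

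The table held intensities of 33012 probes, and 14411 of them carried 1 gene symbol in the platform annotation. The median deposited intensity was 559.6 on both hypothalamus chow arrays, 1338 on both hypothalamus 2-choice arrays and between 700.0 and 701.8 on the liver arrays, so the arrays were brought to 1 distribution before the tissues were compared. The rank correlation of the hypothalamus arrays with each other was 0.710 within chow and 0.895 within 2-choice, liver arrays correlated at 0.757 to 0.83 among themselves, and liver with hypothalamus arrays at 0.518 to 0.617. These are Spearman values across all probes of array pairs that share the probe set, given as a description. Levels are log2 of the quantile normalized intensity. A difference is liver minus hypothalamus on that log2 scale, so a negative value means a higher level in hypothalamus, and a difference of 1 is 2-fold. Errors are standard errors (SE) of the fit over 4 pairs.

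Of 19807 probes bright enough to be tested, 4773 (24.1%) were called higher in liver and 4956 (25%) higher in hypothalamus at an adjusted p under 0.05, so 49.1% differed between the tissues. The median absolute difference of the called probes was 2.02, and 4224 (21.3%) and 4339 (21.9%) were also at least 2-fold apart. At 64-fold or more, 367 probes (1.85%) were higher in liver and 310 (1.57%) in hypothalamus. For 9457 probes (47.7%) the call came with the same sign in all 4 pairs, and for 272 it did not. Counted by gene, with each gene shown by its brightest probe, 2774 of 10122 tested genes (27.4%) were called higher in liver, 2775 (27.4%) higher in hypothalamus and 4573 were not called. The median difference was 0.04 over all tested probes.

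**Figure D1:**
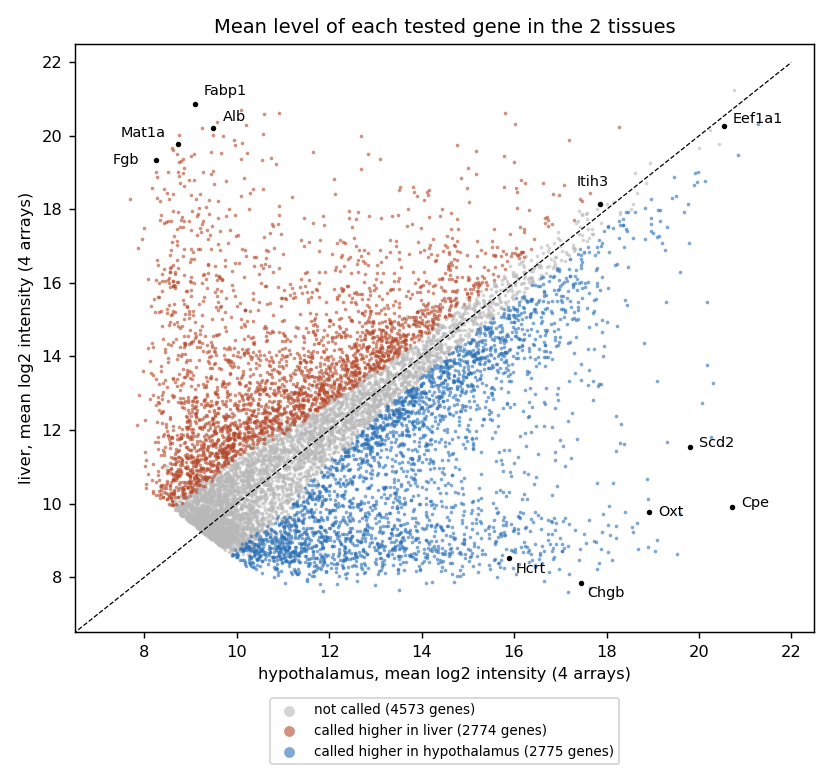
Mean log2 intensity of each of the 10122 tested genes, with the mean of the 4 hypothalamus arrays on the x axis and of the 4 liver arrays on the y axis. Red points are called higher in liver (2774 genes), blue points higher in hypothalamus (2775 genes) and grey points are not called. The dashed line marks equal levels, Eef1a1 and Itih3 lie near it, and the named genes at the upper left and lower right are dim in one tissue and bright in the other.

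The marker genes of the labels fell on the labelled side on every array. Alb, the albumin of blood plasma, stood at 19.30, 20.97, 19.85 and 20.68 on the liver arrays and at 8.71, 8.75, 9.24 and 11.27 on the hypothalamus arrays. The groups lay far apart, and the congenic 2-choice hypothalamus array was the highest of its tissue. The difference for Alb was 10.71 ± 0.36 (adjusted p = 3.5e-09, n = 4 pairs). Apoa1, the main protein of high density lipoprotein, stood at 19.02, 19.03, 18.95 and 19.18 in liver and at 9.15, 8.79, 9.04 and 10.95 in hypothalamus, a difference of 9.57 ± 0.30. The same hypothalamus array was again the highest, and it was also the highest of its tissue for Cyp2e1 (10.65 against 8.64 to 9.54), Fabp1 (9.82 against 8.32 to 9.45) and Acaa1b (10.09 against 8.05 to 9.91). Serpinc1, Kng1 and Akr1c6 were highest on it too. Other genes with large differences toward liver peaked on another hypothalamus array. Hpx, Fgb, Mup21, Cyp3a44 and Hamp were highest on that of B6 2-choice. Mat1a and Ambp were highest on that of congenic chow, and Fgg on that of B6 chow. Over the whole list of 40 tested plasma proteins, the median level on the congenic 2-choice hypothalamus array was 9.08, against 8.73 to 9.01 on the other hypothalamus arrays and 17.83 to 18.00 in liver. Its part in the tissue differences was not tested.

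Hcrt, the orexin precursor of lateral hypothalamic neurons, stood at 8.25, 8.55, 8.96 and 8.32 in liver and at 14.70, 16.12, 16.42 and 16.30 in hypothalamus. The lowest hypothalamus array was B6 chow, still well above all liver arrays, and the difference was -7.37 ± 0.32. Avp, the vasopressin precursor, stood at 10.29, 8.39, 9.91 and 9.63 in liver and at 16.83, 17.08, 16.35 and 16.70 in hypothalamus, a difference of -7.19 ± 0.35. Over the 33 tested genes of the neuronal cytoskeleton, the median level was 8.70 to 8.96 on the liver arrays and 15.78 to 15.95 on the hypothalamus arrays.

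**Figure D2:**
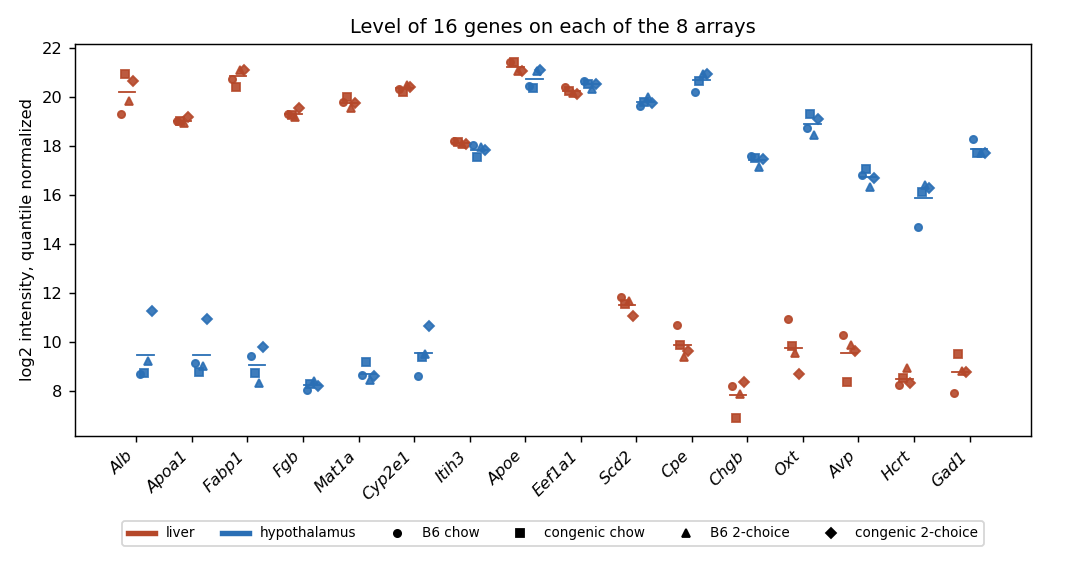
Log2 quantile normalized intensity (y axis) of 16 genes (x axis) on each array, liver in red and hypothalamus in blue. Symbols give strain and diet, and bars give the mean of 4 arrays. The tissues do not overlap for the 6 liver genes at the left or the 7 hypothalamus genes at the right, and lie close together for Itih3, Apoe and Eef1a1.

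The 15 genes with the largest differences toward liver encode secreted proteins, enzymes and a lipid carrier. Fabp1, the fatty acid binding protein of hepatocytes, stood at 20.76, 20.42, 21.13 and 21.13 in liver and at 9.45, 8.76, 8.32 and 9.82 in hypothalamus. Its difference of 11.77 ± 0.25 was the largest of the tested genes. Mat1a, which makes S-adenosylmethionine in liver, stood at 19.81, 20.01, 19.56 and 19.76 against 8.65, 9.18, 8.45 and 8.62, a difference of 11.06 ± 0.18 that varied only from 10.83 to 11.16 between pairs. Secreted proteins among the 15 were the haem binder Hpx (11.28 ± 0.23), the fibrinogen chains Fgb (11.08 ± 0.20) and Fgg (10.59 ± 0.21), the antithrombin Serpinc1 (11.02 ± 0.24), the kininogen Kng1 (10.78 ± 0.22), the alpha-1-microglobulin precursor Ambp (10.61 ± 0.24), Alb, the pheromone carrier Mup21 (11.07 ± 0.23) and Hamp (10.54 ± 0.23), the hormone hepcidin that limits iron release. The enzymes were the peroxisomal thiolase Acaa1b (10.99 ± 0.30), the cytochromes Cyp2e1 (10.81 ± 0.27) and Cyp3a44 (10.80 ± 0.33) and the hydroxysteroid dehydrogenase Akr1c6 (10.60 ± 0.27). Their hypothalamus means ran from 7.68 for Akr1c6 to 10.10 for Fgg. Some of these lay under the level of 9.24 set as the minimum for testing and others, such as Fgg, above it. Of all liver calls, 1322 had a hypothalamus mean under that level, and 1663 of the hypothalamus calls had a liver mean under it.

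Gene lists were described by counts and medians beside those over all tested genes, with no test of the list. A gene at the floor in one tissue was tested only because of its level in the other, so the counts describe the members that passed this minimum. Of 44 listed plasma and coagulation proteins, 40 were measured and tested, 39 were called higher in liver and none in hypothalamus, with a median difference of 8.38. The 1 member not called was Itih3, a hyaluronan-binding heavy chain, which stood at 18.22, 18.17, 18.11 and 18.10 in liver and at 18.06, 17.57, 17.97 and 17.83 in hypothalamus. The arrays of the tissues did not overlap for Itih3, yet the difference was only 0.29 ± 0.16 (adjusted p = 0.165). The smallest called difference of the list was that of Pros1, the anticoagulant protein S, at 2.59 ± 0.24.

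Of 17 tested complement genes, 15 were called higher in liver and none in hypothalamus, with a median of 7.78. Cfi, the protease that inactivates C3b, differed by 10.29 ± 0.23 and C9, a component of the membrane attack complex, by 9.47 ± 0.25. The subunits of C1q, which macrophages and microglia make, lay at the other end: C1qc differed by 0.82 ± 0.21, and C1qa (0.29 ± 0.18) and C1qb (0.21 ± 0.32) were not called. C1qb had a difference under 0 without the B6 chow pair, without the congenic chow pair and over the 2-choice pairs.

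Among 19 tested genes for apolipoproteins and lipid export, 15 were called higher in liver and 1 in hypothalamus (median 6.20). Apoc4 differed by 10.43 ± 0.24 and Apoh by 9.95 ± 0.27. Apod, a lipocalin of glia, was the exception at -6.08 ± 0.49. Apoe, which astrocytes and hepatocytes both make, stood at 21.45, 21.45, 21.06 and 21.06 in liver and at 20.48, 20.39, 21.06 and 21.13 in hypothalamus. These values overlapped, and the difference of 0.49 ± 0.24 was not called. The lipid transfer protein Pltp (-0.22 ± 0.23) and the chaperone Clu (-0.08 ± 0.19) were not called either. These differences of bright genes move with the scaling: with each array centred on its median only, Apoe differed by 1.86 and Itih3 by 1.80, both called, and Clu by 1.62.

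Promoter sequences were examined because plasma protein genes shared the liver level, and the factor HNF1, which is made in liver and is known to act on many of these genes, binds a palindrome. RefSeq windows of the build GRCm38.p6, from 250 bases before to 50 after the start of transcription, were matched for 8233 of 10122 tested genes (81.34%), and 1690 of them had more than 1 window, of which the first listed was used. The motif searched was GTTAATNATTAAC, with at least 10 of its 12 fixed letters, anywhere in the 250 bases before the start. It reads the same on both strands. Such a match was present for 1.06% of all 8233 genes, 2.56% of 1995 genes called and at least 2-fold higher in liver, 10.8% (23) of 213 genes at least 64-fold higher in liver and 15.6% (5) of 32 plasma and coagulation genes. A match to TATAAA on the gene's strand, starting 45 to 20 bases before the start, was present for 1.93% of all genes and 6.10% of the genes 64-fold higher in liver. A match is a description of letters and not evidence of a site in use. The letters of both motifs are mostly or wholly A and T. The median GC content of the windows was 49.0% for the genes 64-fold higher in liver and 60% over all tested genes. The part of base composition in these shares was not tested. The 120 bases before the start are shown for Alb (chr5:90460750-90460869, plus strand), Fgb (chr3:83049864-83049983, minus strand) and C4bp (chr1:130661619-130661738, minus strand), as genes of the plasma and complement lists with a match, and the closest HNF1 match is in capitals.
Alb: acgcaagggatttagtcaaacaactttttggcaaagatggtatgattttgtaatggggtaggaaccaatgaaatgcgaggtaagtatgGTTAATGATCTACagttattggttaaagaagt
Fgb: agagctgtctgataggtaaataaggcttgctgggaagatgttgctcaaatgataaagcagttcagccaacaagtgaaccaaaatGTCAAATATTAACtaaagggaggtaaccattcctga
C4bp: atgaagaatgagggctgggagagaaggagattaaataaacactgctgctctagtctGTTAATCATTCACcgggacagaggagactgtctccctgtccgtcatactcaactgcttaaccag
The match lay at -32 to -20 for Alb, at -36 to -24 for Fgb and at -64 to -52 for C4bp, with 10, 10 and 11 of the 12 letters. Positions were counted from the annotated start of the first listed RefSeq window, and other starts of these genes were not examined. C4bp, which encodes the complement regulator C4b-binding protein, differed by 8.44 ± 0.22, with no overlap of the arrays.

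The windows of liver genes also differed in base composition. The ratio of observed to expected CpG, which is low in promoters outside CpG islands, had a median of 0.725 over all tested genes with a window. It was 0.640 for the genes at least 2-fold higher in liver, 0.253 for those at least 64-fold higher and 0.222 for the plasma and coagulation genes. The median GC content of the window was 60% over all tested genes and 49.0% for the genes 64-fold higher in liver. The matching share was under 80% for the sets of genes higher in hypothalamus (79.71% and 79.51% matched), for neuropeptide precursors (79.31%) and for ribosomal proteins (78.12%), so the check is void for these sets and no value is given.

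**Figure D3:**
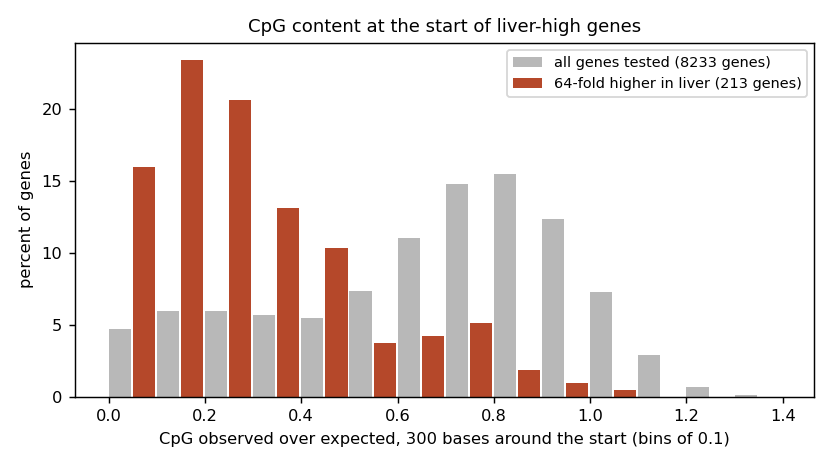
Share of genes (y axis, percent) by CpG observed over expected in the 300 bases around the start (x axis, bins of 0.1). Grey bars are all 8233 tested genes with a window and red bars the 213 genes called and at least 64-fold higher in liver. The medians are 0.725 and 0.253.

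Metabolic lists of liver were called almost wholly toward liver. Of 29 tested genes of the urea cycle and amino acid breakdown, 28 were called higher in liver and none in hypothalamus (median 5.62). Arg1, the arginase that releases urea, differed by 10.12 ± 0.29 and Bhmt, which remethylates homocysteine, by 10.51 ± 0.32. Glud1, the mitochondrial glutamate dehydrogenase that neurons and glia also use, differed by 1.09 ± 0.21, and the transaminase Got1 was not called (-0.15 ± 0.22). Of 33 tested cytochrome P450 and conjugation genes, 32 were called higher in liver (median 7.74), among them Cyp1a2 (10.17 ± 0.25) and the alcohol dehydrogenase Adh1 (10.31 ± 0.28). The glutathione transferase Gstm1 was the 1 not called (-1.14 ± 0.55), though it was called higher in hypothalamus over the 2-choice pairs alone (-2.35) and without the congenic chow pair (-1.69).

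Of 19 tested genes of bile acid synthesis and transport, 18 were called higher in liver, with a median of 6.29. The uptake carrier Slco1b2 differed by 9.90 ± 0.32, the bile acid ligase Slc27a5 by 9.53 ± 0.26, the sterol 12-alpha-hydroxylase Cyp8b1 by 9.35 ± 0.25 and Cyp7a1, the rate-limiting enzyme of bile acid synthesis, by 6.16 ± 0.38. Cyp46a1, the 24-hydroxylase through which neurons export cholesterol, was the exception at -4.74 ± 0.30. Of 18 tested genes of glucose output, glycogen and fructose metabolism, 17 were called higher in liver (median 5.19). The glycogen synthase Gys2 differed by 9.74 ± 0.37, the glucose-6-phosphatase G6pc by 8.69 ± 0.51 and Pck1, which makes phosphoenolpyruvate, by 7.30 ± 0.28. The coactivator Ppargc1a was not called (-0.45 ± 0.26).

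Genes that burn fatty acids and genes that make lipids were read as separate lists. Of 24 tested genes of fatty acid oxidation, ketogenesis and the peroxisome, 23 were called higher in liver (median 3.96), such as the peroxisomal enzyme Ehhadh (6.10 ± 0.31). Oxct1, which lets tissues burn ketone bodies and which the list contains as the user of what liver makes, was the 1 called higher in hypothalamus (-5.37 ± 0.40). Of 19 tested genes of fatty acid and cholesterol synthesis, 12 were called higher in liver and 3 in hypothalamus (median 1.37). The glucose-responsive factor Mlxipl (6.02 ± 0.42), the lipogenic protein Thrsp (5.03 ± 0.33) and the desaturase Scd1 (4.74 ± 0.31) led toward liver. Scd2, the desaturase of brain, stood at 11.84, 11.57, 11.69 and 11.07 in liver and at 19.63, 19.81, 20.02 and 19.78 in hypothalamus. The arrays lay far apart, with a difference of -8.27 ± 0.19. The sterol enzymes Sqle (-0.99 ± 0.18) and Hmgcs1 (-0.79 ± 0.17) were also called higher in hypothalamus, but stood at -0.03 and 0.53 with each array centred on its median only. The fatty acid synthase Fasn was not called (0.26 ± 0.30).

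Of 17 tested transcription factors of liver, 16 were called higher in liver and none in hypothalamus, with a median of 4.31. The bile acid receptor Nr1h4 (7.70 ± 0.30), the fasting factor Creb3l3 (7.37 ± 0.25), the fatty acid receptor Ppara (7.26 ± 0.30) and the hepatocyte factor Cebpa (5.39 ± 0.36) differed most among those with a well known liver role. Xbp1, a factor of secretory cells, had the smallest called difference (1.17 ± 0.23), and Foxa1 was not called (0.99 ± 0.48).

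Among the 15 genes with the largest differences toward hypothalamus were genes of secretory granules, of the neuronal cytoskeleton and of membranes. Cpe, the carboxypeptidase that trims peptide hormones, stood at 10.72, 9.90, 9.38 and 9.63 in liver and at 20.23, 20.68, 20.97 and 20.97 in hypothalamus, a difference of -10.81 ± 0.30. Chgb, the granule protein chromogranin B, stood at 8.22, 6.91, 7.89 and 8.37 against 17.62, 17.51, 17.17 and 17.46, a difference of -9.59 ± 0.30. Neither gene had an array near the other tissue's range. The microtubule regulators Stmn2 (-9.92 ± 0.31) and Stmn3 (-9.92 ± 0.28), the tubulin Tubb2b (-9.56 ± 0.28) and the microtubule protein Map1b (-9.45 ± 0.37) belong to the neuronal cytoskeleton. The reticulon Rtn1 (-10.11 ± 0.32), the junctophilin Jph4 (-9.57 ± 0.32), Nrsn1 (-9.68 ± 0.25) and Tmem130 (-10.34 ± 0.21) encode membrane proteins, and Cntn1 (-9.35 ± 0.23) encodes an adhesion protein of axons. Prkar1b (-9.88 ± 0.22) is the brain form of a regulatory subunit of protein kinase A. Ndrg4 (-10.09 ± 0.20), Zcchc18 (-9.35 ± 0.29) and 6330403K07Rik, which had the largest of these differences (-10.90 ± 0.28), complete the 15. A second, dimmer probe of Jph4 was not called.

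Of 31 measured precursors of neuropeptides and hormones, 29 were tested, 26 were called higher in hypothalamus and 2 higher in liver, with a median of -4.56. Oxt, the oxytocin precursor, stood at 10.94, 9.84, 9.57 and 8.69 in liver and at 18.74, 19.30, 18.46 and 19.13 in hypothalamus. The groups did not overlap, and the difference of -9.15 ± 0.35 was the largest of the list. Somatostatin (Sst, -8.22 ± 0.20) and proenkephalin (Penk, -8.15 ± 0.27) followed. Of the peptides that act on feeding, Npy, which raises intake, differed by -5.97 ± 0.38 and Pomc, whose product melanocortin lowers it, by -3.40 ± 0.46. Pomc stood at 12.88, 12.07, 13.18 and 12.52 in hypothalamus and at 9.95, 8.93, 8.32 and 9.87 in liver, with no overlap. Ghrh, the releasing hormone for growth hormone, had the smallest difference called toward hypothalamus, at -1.39 ± 0.44, and its call was lost without the congenic chow pair or either 2-choice pair (adjusted p = 0.0826 to 0.117). The members called higher in liver were Prok2 (1.85 ± 0.43) and the urocortin gene Ucn (1.65 ± 0.50), and Kiss1 was not called (0.35 ± 0.50). The call of Ucn was lost without the B6 2-choice pair (adjusted p = 0.0689). Without the congenic 2-choice pair, or with the deposited intensities unscaled, 1 member of the list was called higher in liver. Over the chow pairs alone 0 were.

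The proteins that store and cut these peptides were called higher in hypothalamus for 11 of 11 tested genes, with a median of -8.04. Besides Cpe and Chgb they were Resp18 (-8.95 ± 0.37), Scg5 (-8.67 ± 0.24), Chga (-8.61 ± 0.23), Scg3 (-8.04 ± 0.31), Cadps (-7.97 ± 0.31), Scg2 (-7.75 ± 0.33), Pcsk1n (-6.41 ± 0.20), the amidating enzyme Pam (-4.28 ± 0.21) and the proprotein convertase Pcsk1 (-2.49 ± 0.45). Pcsk1 was the dimmest contrast, at 10.00, 10.56, 12.01 and 12.16 in hypothalamus and 7.91, 8.52, 9.43 and 8.92 in liver, without overlap.

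The cAMP response element (CRE), bound by CREB family factors, was searched as TGACGTCA, which reads the same on both strands, in the 250 bases before the start. It was present for 2.47% of all 8233 tested genes with a window, for 1.404% of genes at least 2-fold higher in liver and for 0 of the 213 genes 64-fold higher in liver. Of 10 granin and peptide processing genes with a window, 3 held it (30.0%), which were Scg2 (chr1:79440027-79440146, minus strand), Chgb (chr2:132781522-132781641, plus strand) and Pcsk1 (chr13:75089737-75089856, plus strand). The 120 bases before the start of these 3 genes are shown with the element in capitals.
Scg2: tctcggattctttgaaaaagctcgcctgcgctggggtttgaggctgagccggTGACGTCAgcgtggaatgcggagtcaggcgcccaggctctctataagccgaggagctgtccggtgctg
Chgb: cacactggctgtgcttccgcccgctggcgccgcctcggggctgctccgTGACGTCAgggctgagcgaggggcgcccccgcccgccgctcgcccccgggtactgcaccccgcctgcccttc
Pcsk1: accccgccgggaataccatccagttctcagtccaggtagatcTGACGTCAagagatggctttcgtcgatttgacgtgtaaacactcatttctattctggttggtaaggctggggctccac
The element lay at -68 to -61 in Scg2, at -72 to -65 in Chgb and at -78 to -71 in Pcsk1. These 3 are shown because they hold the element, and the list is small. The element contains a CpG, and the median CpG ratio was 0.253 for the genes 64-fold higher in liver and 0.725 over all tested genes. The part of base composition in the shares with the element was not tested.

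Genes of fast transmission were called mainly toward hypothalamus. Of 26 tested genes for GABA and glutamate synthesis, transport and receptors, 23 were called higher in hypothalamus and 2 in liver (median -4.24). Gad1, which makes GABA from glutamate, stood at 7.93, 9.51, 8.84 and 8.81 in liver and at 18.29, 17.74, 17.74 and 17.74 in hypothalamus, a difference of -9.10 ± 0.32. The AMPA receptor subunit Gria1 (-8.75 ± 0.26) and the vesicular GABA transporter Slc32a1 (-7.24 ± 0.48) followed. Slc32a1 was uneven in liver, at 11.06, 8.44, 12.07 and 10.64, and even in hypothalamus, at 17.75, 17.93, 17.76 and 17.70. The vesicular glutamate transporter Slc17a8 (1.94 ± 0.49) and the NMDA receptor subunit Grin2c (1.67 ± 0.41) were called higher in liver, and Grin2b was not called (0.95 ± 0.55). Abat, which breaks GABA down in both tissues, differed by -1.17 ± 0.16 with its brightest probe, while its other tested probe was called higher in liver.

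Of 36 tested genes of synaptic vesicles and release, 31 were called higher in hypothalamus and none in liver (median -4.24), led by the vesicle protein Sv2a (-8.32 ± 0.30) and the adhesion protein Nlgn2 (-7.57 ± 0.26). Of 33 tested genes of the neuronal cytoskeleton and axon, 30 were called higher in hypothalamus and none in liver (median -6.05). Of 22 tested voltage-gated channel genes, 17 were called higher in hypothalamus and none in liver (median -2.22), led by the calcium channel subunit Cacna2d3 (-6.70 ± 0.29) and the potassium channel Kcnd2 (-6.54 ± 0.47). Brightness limited this class: 6 of 28 measured channel genes were too dim to be tested, and the synaptic gene Snap25 was too dim on this array, with 7.56 to 9.16 on the hypothalamus arrays.

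Among 13 tested genes of monoamine, acetylcholine and histamine signalling, 8 were called higher in hypothalamus and 3 in liver (median -1.27), and 5 higher in hypothalamus with the deposited intensities unscaled. Hdc, which makes histamine, differed by -4.24 ± 0.48 and the dopamine receptor Drd2 by -3.05 ± 0.53. Th, the rate-limiting enzyme of dopamine synthesis, differed by -1.27 ± 0.36, but was not called with each array centred on its median only (-0.40). Gch1, which makes the pterin cofactor of these hydroxylases and of the phenylalanine hydroxylase of liver, was higher in liver by 6.73 ± 0.38. The amine oxidase Maob (2.00 ± 0.16) and the histamine methyltransferase Hnmt (1.04 ± 0.19) were the others called higher in liver.

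Receptors for feeding peptides were dim: 9 of 24 measured were not tested, and of the 15 tested, 5 were called higher in hypothalamus and 3 in liver (median -0.41, or 0.16 without the B6 2-choice pair). Over all tested genes 27.4% were called in each direction, and these shares lie near that. Without the congenic chow pair 3 were called higher in hypothalamus and 1 in liver, and with the deposited intensities unscaled none was called higher in liver. The neurotrophin receptor Ntrk2 (-7.57 ± 0.48) and the NPY receptor Npy2r (-4.43 ± 0.42) had the largest differences. The members called higher in liver were Avpr1a (1.60 ± 0.40), the vasopressin receptor of hepatocytes, Sstr3 (1.39 ± 0.44) and the leptin receptor Lepr (1.38 ± 0.46). Leaving out the congenic chow, B6 2-choice or congenic 2-choice pair ended the calls of Lepr and Sstr3 (adjusted p = 0.0577 to 0.147). Of 37 measured hypothalamic and neural transcription factors, 11 were too dim to be tested, 14 were called higher in hypothalamus and none in liver (median of the 26 tested -1.42). Dlx1, a factor of GABA neurons (-5.74 ± 0.39), Myt1l (-5.34 ± 0.27) and Isl1 (-4.90 ± 0.42) led this list.

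Markers of supporting cells followed the tissue, with named exceptions. Of 15 tested astrocyte markers, 12 were called higher in hypothalamus and 3 in liver (median -4.35). Sparcl1 (-8.46 ± 0.18) and Ntsr2 (-7.88 ± 0.39) led. The glutamate transporter Slc1a2, which liver around the central vein also makes, stood at 14.35, 13.90, 13.60 and 13.46 in liver and at 11.60, 10.94, 11.57 and 11.37 in hypothalamus, a difference of 2.46 ± 0.27 toward liver with no overlap. The bicarbonate transporter Slc4a4 (2.28 ± 0.27) and the angiotensinogen gene Agt (0.79 ± 0.22), a plasma protein of liver, were the others. Agt was not called over the 2-choice pairs (0.34) or without the B6 chow pair (0.64) or the congenic chow pair (0.64).

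Of 17 tested oligodendrocyte and myelin genes, 13 were called higher in hypothalamus, led by the myelin protein Mbp (-8.82 ± 0.44), and 1 in liver, the transferrin gene Trf (4.31 ± 0.25), whose product is also a main plasma protein. Of 5 tested microglia markers, 4 were called higher in hypothalamus, with Tmem119 at -4.20 ± 0.39, and Aif1 was not called (0.74 ± 0.49). Of 6 tested ependymal and tanycyte markers, 5 were called higher in hypothalamus, with the cilia factor Foxj1 at -4.11 ± 0.30, and Rarres2, whose product chemerin liver secretes, was higher in liver (4.36 ± 0.16).

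Kupffer cell markers were called higher in liver for 10 of 12 tested genes (median 4.11), with Cd5l at 5.88 ± 0.40 and Clec4f at 5.39 ± 0.31; Marco (1.33 ± 0.70) and Adgre1 (1.25 ± 0.56) were not called. Markers of liver sinusoidal endothelium were called higher in liver for 7 of 8 tested genes (median 3.86), with Oit3 at 5.10 ± 0.32 and Stab2 at 4.60 ± 0.36. Brain endothelium was mixed: 5 of 10 tested were called higher in hypothalamus, led by Itm2a (-3.89 ± 0.34) and Slco1c1 (-3.82 ± 0.43), and 3 in liver, which were Ocln (2.20 ± 0.41), Mfsd2a (1.91 ± 0.27) and the carrier Slco1a4 (1.44 ± 0.36). Without the B6 2-choice pair, or without the congenic 2-choice pair, 3 of them were called higher in hypothalamus. With the deposited intensities unscaled, 3 were called higher in hypothalamus and 1 in liver. Over all tested genes 27.4% were called in each direction, and the share of brain endothelium markers called higher in liver lay near that. Of 10 measured cholangiocyte markers, 3 were too dim to be tested. Of the 7 tested, 4 were called higher in liver, 1 in hypothalamus and 2 were not called (median 1.73). The median level of the 10 on the liver arrays was only 9.26 to 10.21, where the minimum for testing was 9.24. The keratins Krt8 (6.52 ± 0.40) and Krt18 (6.77 ± 0.50) and the water channel Aqp1 (7.34 ± 0.28) were among those higher in liver. Sox9, a duct cell factor that astrocytes also express, was called higher in hypothalamus (-1.61 ± 0.54), but not without the B6 chow pair or either 2-choice pair. Hepatocytes also express Krt8 and Krt18.

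Markers of tissue next to the hypothalamus were present at uneven levels. The pituitary subunit Cga stood at 8.58, 9.18, 13.16 and 12.60 on the hypothalamus arrays and at 7.62 to 8.51 on the liver arrays. Growth hormone, Gh, stood at 8.25, 8.70, 14.50 and 12.17 in hypothalamus and prolactin, Prl, at 9.13, 8.58, 13.05 and 10.91. All 3 were highest on the 2-choice hypothalamus arrays, first on that of B6. The fitted tissue differences were -2.83 ± 0.77 for Cga and -2.30 ± 0.86 for Gh, both called, and -1.90 ± 0.72 for Prl, not called (adjusted p = 0.0511). Without either 2-choice pair the mean level of Cga fell under the minimum for testing, so its call rests on both. Gh was not called without the congenic 2-choice pair (adjusted p = 0.0987) and was too dim to be tested without that of B6. Without either chow pair Prl was (adjusted p = 0.0451 and 0.0242). Over the 7 measured pituitary markers, the median level was 8.58 and 8.70 on the chow and 10.10 and 10.11 on the 2-choice hypothalamus arrays. The part of pituitary RNA in other differences was not tested. Of 9 tested markers of neighbouring brain regions, 3 were called higher in hypothalamus (Drd2, Drd1 at -2.22 ± 0.47 and the cortical factor Tbr1 at -2.22 ± 0.44). The nuclear receptor Rora was called higher in liver (1.19 ± 0.24), though not with the deposited intensities unscaled (adjusted p = 0.27). The shares of this list were 33.3% and 11.1%, where 27.4% of all tested genes were called in each direction.

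**Figure D4:**
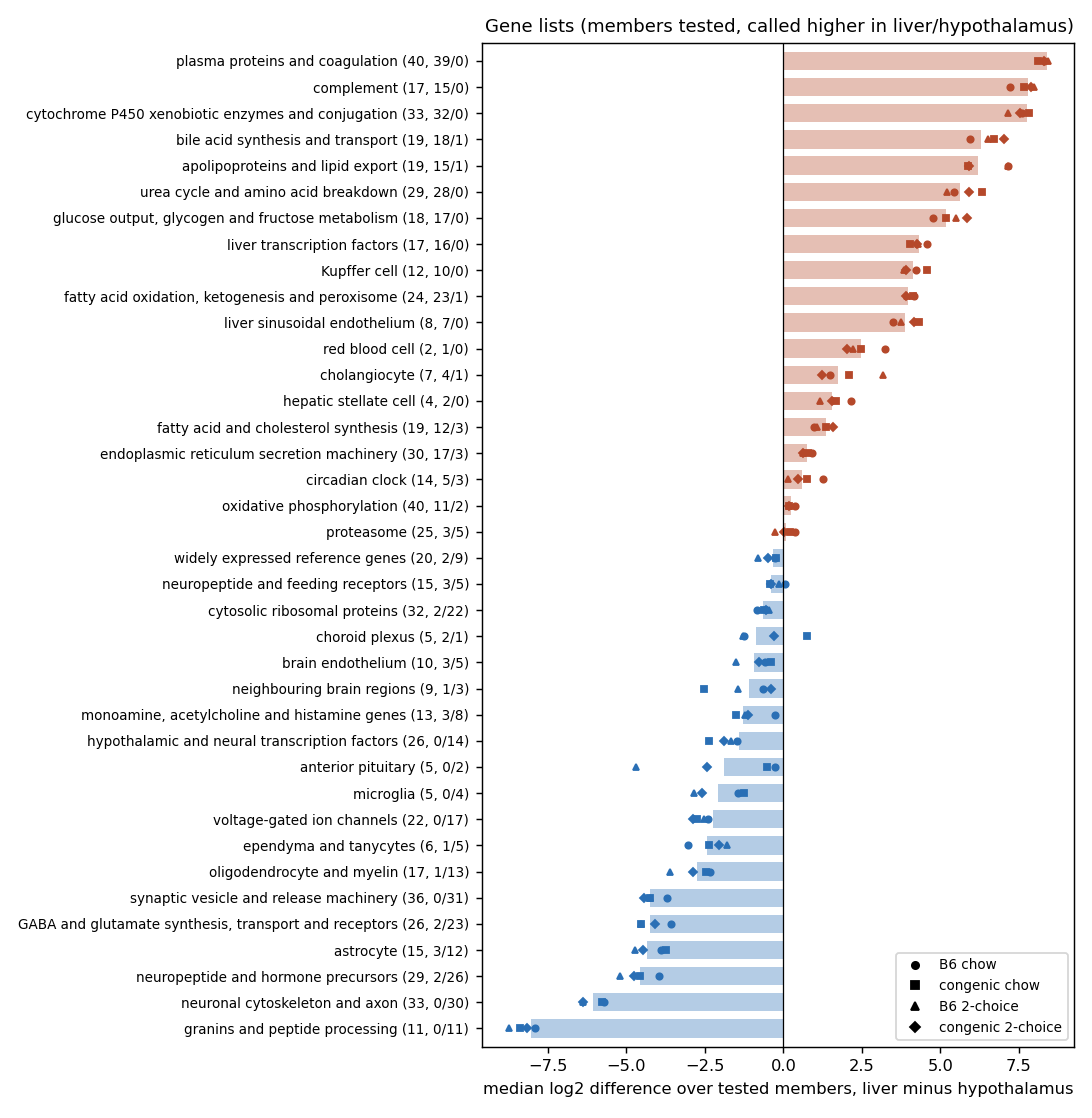
Median log2 difference, liver minus hypothalamus (x axis), over the tested members of 38 gene lists (y axis). Bars are the median of the fitted differences and symbols are the medians within each of the 4 pairs, with the number of members tested and the numbers called higher in liver and hypothalamus in brackets. Plasma proteins reach 8.38 and granins -8.04, and the 4 pairs lie close together for most lists but not for anterior pituitary.

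Enzymes with a separate form in each tissue were compared by the difference of each form. Levels of different probes were not set against each other. The liver glycogen synthase Gys2 differed by 9.74 ± 0.37 and the widely expressed Gys1 by -1.32 ± 0.45 (adjusted p = 0.0318), a call that was lost without the B6 chow pair or either 2-choice pair (0.0848 to 0.139). The glycogen phosphorylase of liver, Pygl, differed by 5.37 ± 0.24 and that of brain, Pygb, by -5.77 ± 0.29. Lactate dehydrogenase A (Ldha) differed by 0.97 ± 0.18 and B (Ldhb), the form favoured in tissue that oxidises lactate, by -6.79 ± 0.24.

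Among lipid enzymes, Cpt1a, the carnitine palmitoyltransferase that admits fatty acids to mitochondria, differed by 3.02 ± 0.48 and its neuronal relative Cpt1c by -2.72 ± 0.24. The binding protein Fabp7 of radial glia and astrocytes differed by -3.94 ± 0.27, opposite to Fabp1. Scd1 and Scd2, and Cyp7a1 and Cyp46a1, were opposed in the same way. The elongation factor Eef1a2 of neurons and muscle differed by -7.26 ± 0.31, while the widely expressed Eef1a1 stood at 20.14 to 20.42 in liver and 20.36 to 20.68 in hypothalamus and was not called (-0.28 ± 0.17; 1.33 under median centring). Another probe of Eef1a1 was called higher in hypothalamus. Among forms measured without a partner, the pyruvate kinase Pklr was higher in liver (4.63 ± 0.39), and the hexokinase Hk1 (-5.51 ± 0.36), the enolase Eno2 (-7.70 ± 0.40), the aldolase Aldoc (-5.75 ± 0.17), the acyl-CoA ligase Acsl6 (-5.40 ± 0.40) and the creatine kinase Ckb (-7.33 ± 0.19) were higher in hypothalamus.

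Not all pairs were opposed. The sodium pump subunits Atp1b1 (-3.40 ± 0.21) and Atp1b3 (-1.86 ± 0.27) were both called higher in hypothalamus. The retinal dehydrogenase Aldh1a1 was higher in liver (3.30 ± 0.17), and Aldh1a2 was not called (-0.11 ± 0.46). The glucose transporter Slc2a2 was higher in liver (6.80 ± 0.29), and Slc2a3 of neurons was too dim to be tested.

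**Figure D5:**
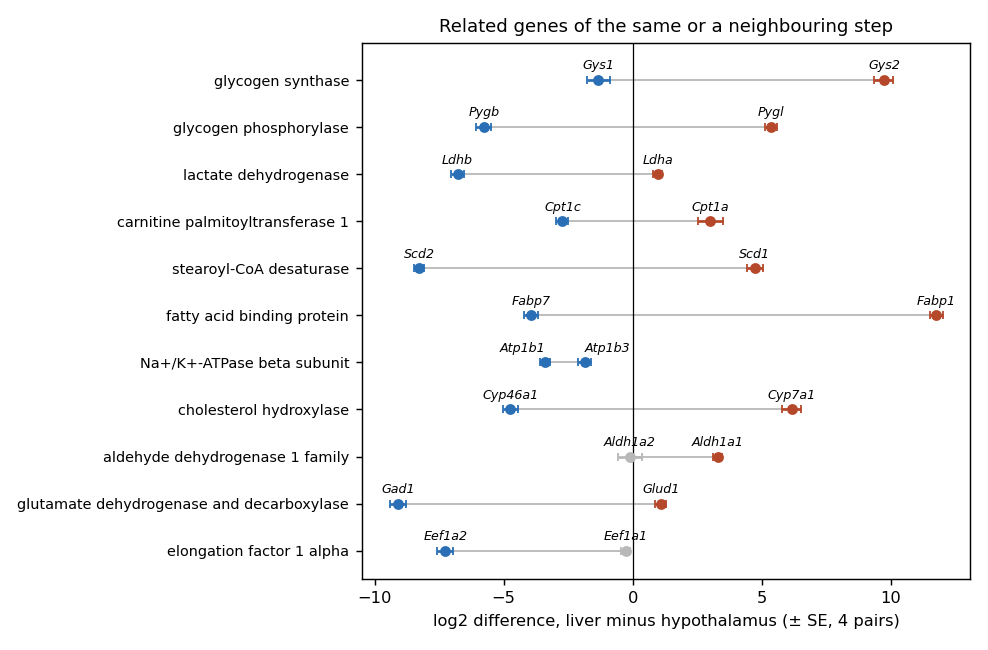
Log2 difference, liver minus hypothalamus (x axis), of both members of 11 pairs of related genes (y axis). Points are fitted differences with bars of 1 SE over 4 pairs, red for genes called higher in liver, blue for hypothalamus and grey for not called. In 8 of the 11 pairs the members were called in opposite directions. Pairs were listed as a form of liver and a form of brain, so this count depends in part on their choice. The 8 include Glud1 with Gad1, a dehydrogenase and a decarboxylase of glutamate that are not forms of the same enzyme.

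Genes of shared cell machinery differed less, and the direction of the ribosomal protein and reference gene medians depended on the scaling. Of 32 tested cytosolic ribosomal protein genes, 22 were called higher in hypothalamus and 2 in liver (Rpl4 at 0.98 ± 0.28 and Rpl22 at 0.91 ± 0.22), with a median of -0.66. The call of Rpl4 was lost without either 2-choice pair (adjusted p = 0.0565 and 0.0619). With each array centred on its median only, 17 were called higher in liver and none in hypothalamus (median 0.70). With the deposited intensities unscaled, 1 was called higher in liver and none in hypothalamus (median 0.40), and without the variance trend 1 and 8 were. Of 20 tested reference genes, 9 were called higher in hypothalamus and 2 in liver (median -0.31). Under median centring 2 were called higher in hypothalamus and 10 in liver (median 0.73), and unscaled 1 in each direction (median 0.43). B2m, the light chain of MHC class I, was the reference gene furthest toward liver (4.01 ± 0.26) and Reep5 the furthest toward hypothalamus (-2.41 ± 0.34). Actb stood at -1.72 ± 0.26 and Gapdh at -1.35 ± 0.22, both called, but Gapdh was at 0.36 under median centring.

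Of 40 tested genes of oxidative phosphorylation, 11 were called higher in liver and 2 in hypothalamus (median 0.25), with the succinate dehydrogenase subunit Sdhd at 1.399 ± 0.16. The 11 make 27.5% of the list, where 27.4% of all tested genes were called higher in liver. Median centring gave 35 liver and 0 hypothalamus calls (median 1.33), and the unscaled intensities 4 and 0 (median 1.03). Without the variance trend there were also 4 and 0, and without the congenic 2-choice pair 5 and 2. The 2 called higher in hypothalamus, Cox4i1 (-0.59 ± 0.15) and Cox8a (-0.53 ± 0.18), had differences above 0 under both other scalings, and Cox8a was not called without either chow pair (adjusted p = 0.114 and 0.116). Of 30 tested genes of the secretory endoplasmic reticulum, 17 were called higher in liver and 3 in hypothalamus (median 0.76), with the cargo receptor Lman1 at 3.26 ± 0.20 and the disulphide isomerase P4hb at 2.48 ± 0.16. With the deposited intensities unscaled, 7 of them were called higher in liver and none in hypothalamus. Of 25 tested proteasome subunits, 3 were called higher in liver and 5 in hypothalamus (median 0.08, or -0.02 without 1 or the other chow pair), and the immunoproteasome subunits Psmb8 (3.99 ± 0.35) and Psmb10 (1.29 ± 0.21) were among the 3. The shares of proteasome subunits called in either direction lay under the 27.4% of all tested genes called in each. Median centring gave 13 liver and 0 hypothalamus calls (median 1.05), the unscaled intensities 1 and 0 (median 0.74), and the fit without variance trend 3 and 2. Of 14 tested clock genes, 5 were called higher in liver and 3 in hypothalamus (median 0.58), shares near those of all tested genes (27.4% in each direction). With the deposited intensities unscaled 1 was called higher in liver and 2 in hypothalamus. Arntl, the activator of the loop, was higher in hypothalamus (-2.21 ± 0.42) and its repressor Bhlhe41 higher in liver (2.29 ± 0.40).

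Consistency over the pairs was read from the SD of the 4 pair differences. Among genes called and at least 4-fold apart, the steadiest toward liver were Slc44a3 (SD 0.05), the kynurenine aminotransferase Kyat3 (0.07), the very long chain fatty acid ligase Slc27a2 (0.08), the nucleotide hydrolase Nudt1 (0.08) and Ostf1 (0.09). Slc27a2 stood at 18.90, 18.75, 19.41 and 19.30 in liver and at 12.44, 12.43, 12.94 and 12.92 in hypothalamus. It was higher under 2-choice in both tissues, so its difference stayed between 6.32 and 6.47. The steadiest toward hypothalamus were Pwwp3b (SD 0.03), Glg1 (0.05), the endophilin Sh3glb2 (0.07), Vstm2b (0.08) and the kinase Gsk3b (0.08), whose differences lay between -2.001 for Sh3glb2 and -6.35 for Vstm2b. The liver means of Pwwp3b (8.44) and Vstm2b (7.88) and the hypothalamus mean of Slc44a3 (8.59) lay under the minimum for testing of 9.24. The fitted SEs of these 3 genes were 0.40, 0.36 and 0.42. An SD of 4 values that was picked as the smallest among many genes is low in part by that choice.

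The least steady of the tested genes each rested on 1 array. Tex48 was at 15.80 on the B6 2-choice liver array and at 6.99 to 9.50 on the other 7 arrays. Skida1 was at 18.03 on the congenic 2-choice liver array and at 7.81 to 9.30 elsewhere, and Fgd3 was at 17.95 on the B6 chow hypothalamus array and at 7.94 to 9.98 elsewhere. The congenic chow liver array was the high one for Tnni2 (16.20), Sprr2j-ps (16.44) and Vps33a (16.98), the congenic chow hypothalamus array for Olfml2a (16.92) and Ttc24 (16.41), and the B6 chow hypothalamus array for 1700010D01Rik (16.02). None of these 9 genes was called, but Fgd3 and Sprr2j-ps were called without the congenic 2-choice pair and Vps33a without either 2-choice pair. Akr1c14, a hydroxysteroid dehydrogenase, was the 1 called among the 10 with the largest SD (6.66 ± 0.94): it stood at 17.15 to 17.59 in liver and at 8.63, 8.84 and 9.88 on 3 hypothalamus arrays, but at 15.49 on that of congenic chow mice.

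Across all tested probes, the differences of any pair of pools correlated at 0.827 to 0.921 (Pearson's r over probes, which are not independent). The highest value was that between the 2-choice pairs and the lowest that between the chow pairs. The spread of the differences was alike, with an SD over probes of 2.38 to 2.50 in each pair.

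Whether the tissue difference itself differed between diets was tested as an interaction, with 1 residual degree of freedom. At an adjusted p under 0.05, 75 of 19807 probes (0.379%) passed, 25 (0.126%) with a larger value in the 2-choice pairs and 50 (0.252%) with a smaller one. The hypothalamus arrays of the diets were deposited on different scales, so diet and scale cannot be told apart, and on simulated data this fit made more false calls than its threshold allows. The count depended on the processing: median centring gave 4863 calls and no filter on dim probes 334. Without the trend in the variance model, or with strain and diet as additive terms, 0 probes passed in limma, with 2076 and 2842 probes at an unadjusted p under 0.05. The values below are therefore given as measured.

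The gene with the lowest p was Ttr, the thyroxine and retinol carrier of liver and choroid plexus. It stood at 21.06, 21.13, 19.63 and 20.54 in liver and at 9.85, 8.76, 11.99 and 11.76 in hypothalamus, so that its difference was lower in the 2-choice pairs by a log2 change of -3.58 ± 0.27 (adjusted p = 0.000118). Both tissues contributed, with lower liver and higher hypothalamus levels under 2-choice. The cytochrome Cyp2c29 (-3.52, adjusted p = 0.00139), the glutathione transferase Gstm2 (-3.24, adjusted p = 0.00181) and the uridine phosphorylase Upp2 (-2.71, adjusted p = 0.00474) had the same form. Cyp2c29 stood at 19.40, 19.47, 17.90 and 18.31 in liver and at 8.45, 8.87, 11.15 and 10.56 in hypothalamus. Haptoglobin, Hp, was the reverse (2.32, adjusted p = 0.00367), at 19.78, 19.54, 20.05 and 19.85 in liver and at 10.81, 11.44, 8.88 and 9.32 in hypothalamus. Most of the change of Hp lay in the dim hypothalamus values. Of 8 measured choroid plexus markers, the median level was 9.31 and 8.75 on the chow and 10.05 and 10.13 on the 2-choice hypothalamus arrays, and the part of choroid plexus in the Ttr values was not tested.

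The same interaction with strain gave 0 of 19807 probes (0%) in limma, with 1280 probes at an unadjusted p under 0.05 and a lowest adjusted p of 0.338. The 5 genes with the lowest p were Pcbd1, Slc32a1, Perp, Rnf123 and Oxt. Pcbd1, a cofactor of hepatocyte factors and pterin recycling, stood at 17.82, 17.12, 17.89 and 17.02 in liver and at 13.99, 15.28, 14.42 and 14.85 in hypothalamus. The congenic array was the lower one in liver and the higher one in hypothalamus under both diets, a difference by strain of -1.65 ± 0.28 that did not pass (adjusted p = 0.338). Perp stood at 7.54, 10.70, 9.004 and 12.17 in hypothalamus and at 13.30 to 13.67 in liver.

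Genes higher in one tissue had a neighbour of the same kind somewhat more often than such genes occur. Genes were ordered by the RefSeq gene table, which served only for order. Of 2430 genes at least 2-fold higher in liver that had a next tested gene on their chromosome, that neighbour was also liver-high for 733 (30.16%), where 24.05% of all placed genes were liver-high. For hypothalamus the values were 664 of 2397 (27.70%) and 23.72%. These shares are descriptions, and neighbours include copies of one ancestral gene whose probes may share targets. Runs of at least 3 consecutive tested genes, all called and at least 16-fold higher in the same tissue, numbered 19 for liver and 3 for hypothalamus.

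Several of the liver runs held members of 1 gene family, and others, such as Tex37, Thnsl2 and Fabp1, did not. The fibrinogen genes Fgg, Fga and Fgb lay side by side on chromosome 3, with differences of 8.99 to 11.08. Ahsg, Fetub, Hrg, Kng2 and Kng1, which encode related plasma proteins, formed a run of 5 on chromosome 16 (8.05 to 10.78), and Apoc2, Apoc4 and Apoc1 a run of 3 on chromosome 7 (8.19 to 10.43). The longest run held 6 glucuronosyltransferase genes on chromosome 5, from Ugt2b34 to Ugt2b38 (5.92 to 10.15). In hypothalamus, the GABA receptor subunits Gabrg1, Gabra2 and Gabrb1 on chromosome 5 formed a run with differences of 4.19 to 6.62 toward hypothalamus.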

How the data were processed

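Per the labels' protocols, 1 pool of total RNA per tissue, strain and diet was transcribed into digoxigenin-labelled cRNA and read on single-channel chemiluminescent arrays. The deposited values are linear probe intensity (43.0 to 3445726), and how the authors corrected background, normalized or called detection is not given in the sources used here. Each array was grouped by its title; the tissue, strain and diet characteristics match, while some descriptions name another tissue, strain or diet. Intensities were taken to log2 and quantile normalized over all 8 arrays, because the arrays had different medians. Probes with a mean over 8 arrays at or above the 40th percentile (9.24) were tested, 19807 of 33012. The tissue fit used lmFit and eBayes with trend from limma 3.58.1 under R 4.3.3, with the pair as a block (3 residual degrees of freedom) and Benjamini-Hochberg adjustment over all tested probes at 0.05. Interactions of tissue with diet and strain left 1 residual degree of freedom. Both kinds of fit were tested on simulated data, where the diet interaction made more false calls than its threshold allows. No pool was repeated, so a p-value reflects only how these pools vary, and the number of arrays limits the precision.

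Symbols came from the platform annotation, which gave 1 symbol to 14411 probes, several to 247 and none to 18354. A gene is shown by its probe with the highest mean over the arrays. Genes were named by rule: the 15 with the largest mean difference per direction among called genes with the same sign in all 4 pairs, the label markers, per list the largest differences, the members against its direction and the best known, the 5 smallest (at 4-fold or more) and 10 largest SDs over pairs, and the 5 lowest p of each interaction. Members of a list that were not called, genes shown for a promoter match and genes of chromosomal runs were named after their values were seen. Members, lists and motifs were chosen with earlier results of these data known. Other scalings, filters, a pseudocount of 64, variance models, designs, leaving out each pair and using the pairs of 1 diet were tried. Protein features were not used here.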

Additional observations from a re-analysis of the deposited data

Results flagged for a closer look

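Among 476 groups of 4 arrays, from the 238 genes named here in each tissue, 33 groups (6.93%) held 1 array far from the other arrays of its tissue. Chance flags about 1 in 20, but the 238 genes include the 10 named for the largest SD over pairs. Of those 10, Tex48, Skida1, Tnni2, Ttc24 and 1700010D01Rik were flagged, so the share depends in part on how genes were named. On the congenic chow hypothalamus array, Th (16.81), Fasn (16.59), Fga (9.86), Kl (11.49) and Ttc24 (16.41) stood above the other hypothalamus arrays, and Krt18 (7.16), Thnsl2 (9.75), Ckb (19.85) and Lman1 (11.75) below. On the B6 chow hypothalamus array, Npy (15.61), Gad1 (18.29), Cyp1a2 (9.80), Kng2 (10.07), Ugt2b34 (12.07), Tnni2 (11.57) and 1700010D01Rik (16.02) stood above, and Xbp1 (14.71) and Maob (14.61) below. On the 2-choice hypothalamus arrays, Apoa1 (10.95, congenic), Lepr (9.30, B6) and Atp1b1 (18.60, B6) stood above.

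On the congenic chow liver array, Adgre1 (11.98), Ntsr2 (10.46), Fabp7 (11.02), Stmn2 (9.57) and Tnni2 (16.20) stood above the other liver arrays, and Slc17a8 (9.04) and Eef1a2 (7.97) below. On the congenic 2-choice liver array, Skida1 (18.03) and Pygl (17.64) stood above. On the B6 2-choice liver array Tex48 (15.80) stood above and Hrg (16.60) below, and on the B6 chow liver array Pck1 (19.53) was the low one. Tex48, Skida1, Tnni2, Ttc24 and 1700010D01Rik were not called between the tissues.

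The interaction of tissue with diet was called for 11 of the genes named. Of these, Ttr, Cyp2c29, Gstm2, Upp2 and Hp were named for having the lowest p in it, so the count depends in part on how genes were named. Over all tested probes, 75 of 19807 (0.379%) were called. It was smaller toward liver in the 2-choice pairs for Ttr (-3.58), Cyp2c29 (-3.52), Gstm2 (-3.24), Upp2 (-2.71), Slco1a4 (-1.98) and Cyp3a44 (-1.74), as the log2 change of the difference from chow to 2-choice. It was larger toward liver for G6pc (2.84), Hp (2.32) and Thrsp (1.85). For the haemoglobin gene Hba-a1 the change was -1.81, around a mean difference that was not called. For Mbp, the myelin gene, the change was -2.24, so its difference toward hypothalamus was larger in the 2-choice pairs. The adjusted p-values ran from 0.000118 for Ttr to 0.0472 for Cyp3a44 (limma), and none of these calls was made without the variance trend or with additive strain and diet terms. The diet interaction also made more false calls on simulated data than its threshold allows. Diet and the deposited scale of the hypothalamus arrays cannot be told apart here.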

How the results depend on the processing

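The counts of calls stayed within 1.5 times of 4773 (liver) and 4956 (hypothalamus) under every alternative run except the deposited intensities with no further scaling, which gave 2439 and 3140; the cause was not tested. With each pair left out in turn they were 4045 to 4422 and 4208 to 4782, and without the pair block 4921 and 5042. Median centring gave 5287 and 3801, which moved the share of calls toward liver from 49.06% to 58.2% and the median of all tested probes from 0.04 to 0.24. The 2-choice pairs alone gave 4890 and 5553 and the chow pairs alone 3359 and 3524, alternatives chosen after seeing the data. The 75 calls by diet became 4863 under median centring, 334 with no filter and 0 without trend or with additive terms (limma, 2076 and 2842 probes at an unadjusted p under 0.05). The 0 calls by strain (limma, 1280 at an unadjusted p under 0.05) became 5 under median centring and 19 with no filter; the cause was not tested.

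Of 236 tested genes named here, 181 kept direction and call in all alternatives run on them and 20 changed sign in at least 1; the cause was not tested. Under median centring and with no further scaling, the differences were 1.33 and 1.03 for Eef1a1, 1.62 and 1.31 for Clu, 1.11 and 0.81 for Got1, 0.53 and 0.22 for Hmgcs1, 0.50 and 0.19 for Abat, 0.36 and 0.052 for Gapdh, 0.90 and 0.59 for Cox4i1 and 0.89 and 0.59 for Cox8a. Pltp was at 0.16 under the first and Kiss1 at -0.0088 under the second. With each pair left out in turn, C1qb ran from -0.10 to 0.48, Clu from -0.19 to 0.024, Got1 from -0.40 to 0.082, Fasn from -0.12 to 0.63, Tnni2 from -0.88 to 2.29, Hba-a1 from -0.26 to 0.52 and Rnf123 from -0.57 to 1.12. Aldh1a2 ran from -0.041 to 0.014 only in those of these fits where it was bright enough to be tested. Its differences within single pairs ran from -0.476 to 0.812. Over the 2-choice pairs Apoe was at -0.036, C1qb at -0.58, Hba-a1 at -0.75, Clu at 0.18, Vps33a at -0.057, 1700010D01Rik at 0.23 and Rnf123 at -0.89. Over the chow pairs Got1 was at 0.27, Gstm1 at 0.061, Fasn at -0.49, Kiss1 at -0.17 and Aldh1a2 at 0.17.

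Of 38 list medians, 4 changed sign. Reference genes were at 0.73 and 0.43 and ribosomal proteins at 0.70 and 0.40 under those 2 scalings. Feeding receptors ran from -0.58 to 0.16 with each pair left out and were at 0.058 over the chow pairs. Proteasome subunits ran from -0.019 to 0.26 and were at -0.093 over the 2-choice pairs. Signal over background could not be judged probe by probe, since detection calls were not used, so dim probes carry the largest uncertainty in fold.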

Other observations

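Smaller marker lists gave mixed values. Of 4 tested markers of hepatic stellate cells, Ecm1 (5.27 ± 0.37) and the proteoglycan gene Dcn (2.66 ± 0.18) were called higher in liver, and the other two were not called. Of 5 tested choroid plexus markers, Ttr and Aqp1 were called higher in liver, and Kl, the klotho gene, higher in hypothalamus (-1.93 ± 0.51), with 1 high hypothalamus array at 11.49. Of 2 tested red cell genes, Alas2, the haem synthesis enzyme of red cell precursors, was called higher in liver (4.81 ± 0.25), while the haemoglobin gene Hba-a1 (0.16 ± 0.33) was not called.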
